A study of Homo sapiens with 12 samples.

Results

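Messenger RNA levels of 10 genes that build the mTOR kinase complexes and their TSC-RHEB switch were examined in 786-O cells, an established human clear cell renal carcinoma line. The genes were taken by symbol from the deposited count table, as MTOR, RPTOR, RICTOR, MLST8, DEPTOR, AKT1S1, MAPKAP1, TSC1, TSC2 and RHEB. All 10 of 10 were among the 17085 genes of the table, and all 10 were among the 12841 genes that passed the filter on low counts and were tested. The cells had been treated for 24 h in 4 groups of 3 libraries each. One group received dimethylsulfoxide (DMSO), the vehicle, and served as control. Another received 5 µM everolimus, a rapamycin analogue that inhibits mTOR complex 1, and the next received 1.5 µM SGI-1027, a quinoline inhibitor of DNA methyltransferases. The fourth received 5 µM everolimus together with 1.5 µM SGI-1027 and is called the combination. In separate assays of this line at these doses, the paper reports enzyme release from damaged cells under both drugs but not under either alone. The share of dying cells in the sequenced cultures is not given in the sources used here. Its bearing on the differences between the combination and the other groups, and on the interaction of the drugs, was not tested. The sample records are at odds on the everolimus group, since the treatment entry of each library gives 5 µM and the common treatment protocol gives 10 µM for everolimus alone. The paper's methods give everolimus alone the same dose as the entries of the libraries, and that dose is used here. All groups are the same wild-type line at 1 time point, and the records do not tell whether libraries within a group stem from separate cultures, so p values measure only the spread between these libraries, which may be technical.

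The mTOR kinase works in a pair of complexes. In mTORC1 it is joined by RPTOR (raptor), which brings in substrates, by MLST8 and by the inhibitory subunits AKT1S1 (PRAS40) and DEPTOR, and this complex drives protein synthesis and restrains autophagy. In mTORC2 it is joined by RICTOR and MAPKAP1 (SIN1), again with MLST8 and DEPTOR, and this complex phosphorylates AKT and related kinases. The small GTPase RHEB switches mTORC1 on, and the TSC1-TSC2 complex switches RHEB off by stimulating its GTPase activity. Everolimus binds the immunophilin FKBP12, and the pair then docks on mTOR. These are activities of proteins, whereas the values here are RNA levels in bulk cultures, in which less RNA per cell and fewer expressing cells cannot be told apart.

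The sequences before the genes whose RNA moved in opposite directions, RICTOR and RPTOR, and before TSC2, which held the one E-box found, are shown because SGI-1027 acts on the enzymes that methylate CG dinucleotides. DNA methylation was not measured in these files. RefSeq promoter windows (GRCh38.p14) were matched for 7 of the 10 genes, giving 8 windows of 250 bases upstream of a gene start. MLST8, AKT1S1 and DEPTOR were without an entry. Each sequence is printed 5′ to 3′ on the strand of its gene, with CG dinucleotides in capitals. The RICTOR window is chr5:39074400-39074649 on the minus strand, the RPTOR window is chr17:80544588-80544837 on the plus strand and the first of 2 TSC2 windows is chr16:2047735-2047984 on the plus strand.
RICTOR: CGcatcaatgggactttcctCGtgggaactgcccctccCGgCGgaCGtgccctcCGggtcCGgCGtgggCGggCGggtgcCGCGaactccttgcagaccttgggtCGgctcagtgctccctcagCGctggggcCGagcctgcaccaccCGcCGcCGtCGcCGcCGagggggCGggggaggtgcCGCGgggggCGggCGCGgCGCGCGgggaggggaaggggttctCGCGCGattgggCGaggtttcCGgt
RPTOR: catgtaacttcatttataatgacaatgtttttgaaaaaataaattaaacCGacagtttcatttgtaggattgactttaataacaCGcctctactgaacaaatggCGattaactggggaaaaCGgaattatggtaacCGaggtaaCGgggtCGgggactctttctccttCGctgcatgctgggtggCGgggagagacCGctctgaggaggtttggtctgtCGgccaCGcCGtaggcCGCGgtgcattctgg
TSC2: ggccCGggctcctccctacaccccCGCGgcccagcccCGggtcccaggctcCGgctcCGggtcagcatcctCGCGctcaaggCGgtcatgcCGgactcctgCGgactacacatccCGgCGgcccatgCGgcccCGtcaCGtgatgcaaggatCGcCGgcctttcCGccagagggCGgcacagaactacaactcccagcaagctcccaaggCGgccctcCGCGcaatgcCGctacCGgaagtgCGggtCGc
The RICTOR window held 35 CG dinucleotides, a number reached by 5.8% of the 35116 promoter windows, whose median was 11. The RPTOR window held 15, reached by 42.9% of windows. The TSC2 windows held 27 and 37, reached by 17.7% and 4% of windows, so the second, which is not printed, held more than that of RICTOR. The windows of MTOR, RHEB, MAPKAP1 and TSC1 held 11, 24, 20 and 22, reached by 50.3%, 23.7%, 32.4% and 28%. The E-box CACGTG occurred once in the 8 windows, starting 114 bases before the first TSC2 start, and it occurred in 6.34% of all windows. None of the 8 windows held the CRE TGACGTCA, the forkhead motif TGTTTAC, the CARE TGATGNAAT or the E2F motif GCGCGAAA, searched on both strands. These motifs occurred in 1.65%, 2.98%, 0.888% and 0.439% of all windows.

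Library totals ran from 37046231 to 41516976 counts, and TMM scaling factors from 0.990 to 1.01. Libraries of a group differed by more than counting noise, with a chi-square per gene of 3.04 to 16.4 where counting alone gives about 1, so no library was treated as a duplicate. The largest values belonged to pairs with DMSO replicate 1 (10.1 and 12.9) or SGI-1027 replicate 3 (16.1 and 16.4). In these 2 libraries the deviation from the group mean went with transcript GC content (r over genes 0.246 and 0.201, a description of each library). Among 7 markers of a renal carcinoma line, VIM, KRT8, KRT18, CDH2, PAX8 and EPAS1 were high in every library, from 26.9 FPKM (fragments scaled by gene length and library size) upward, and CA9 was at most 0.536 FPKM. Of 6 markers of immune, endothelial or blood cells, PTPRC, CD3E, CD14, PECAM1 and VWF were at 0 to 0.249 FPKM in every library, and HBB is not among the table's symbols.

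RNA of 7 of the 10 genes differed from DMSO under each treatment, and these were the same 7. RICTOR, TSC1 and TSC2 rose, and RPTOR, AKT1S1, MAPKAP1 and MLST8 fell, while MTOR, RHEB and DEPTOR did not pass the test. The test was edgeR's quasi-likelihood test with a Benjamini-Hochberg adjusted p under 0.05 over all tested genes. Of all tested genes, 56.4% passed it under everolimus, 62.6% under SGI-1027 and 66.2% under the combination, so 7 of 10 is near the background of each comparison. The same holds by direction, with 3 genes higher beside 27.2%, 32% and 32.8% and 4 genes lower beside 29.2%, 30.6% and 33.4%. The libraries of treated and DMSO groups did not overlap for 8, 7 and 7 of the 10 genes, beside 62.9%, 63.2% and 69.2% of tested genes. The 3 comparisons share the same DMSO libraries, and the recurrence of the 7 genes is therefore not independent. Fold changes were moderate. With a fold change of at least 1.5 added, RICTOR passed under all 3 treatments and AKT1S1 under the combination, against 13.8%, 19.1% and 23.2% of tested genes. The study's own cut-off asks for an unadjusted p under 0.05 and a log2 change of 1 or more in size, and 0 of the 10 reached it, beside 4.79%, 7.33% and 9.96% of tested genes. By the unadjusted p alone, 8 of the 10 were under 0.05 with everolimus and 7 with each other treatment, beside 61.1%, 66% and 68.7% of tested genes. The median log2 fold change over the 10 genes was -0.08, -0.02 and -0.06 under everolimus, SGI-1027 and the combination, beside 0.00, 0.02 and 0.01 over all tested genes.

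**Figure D1:**
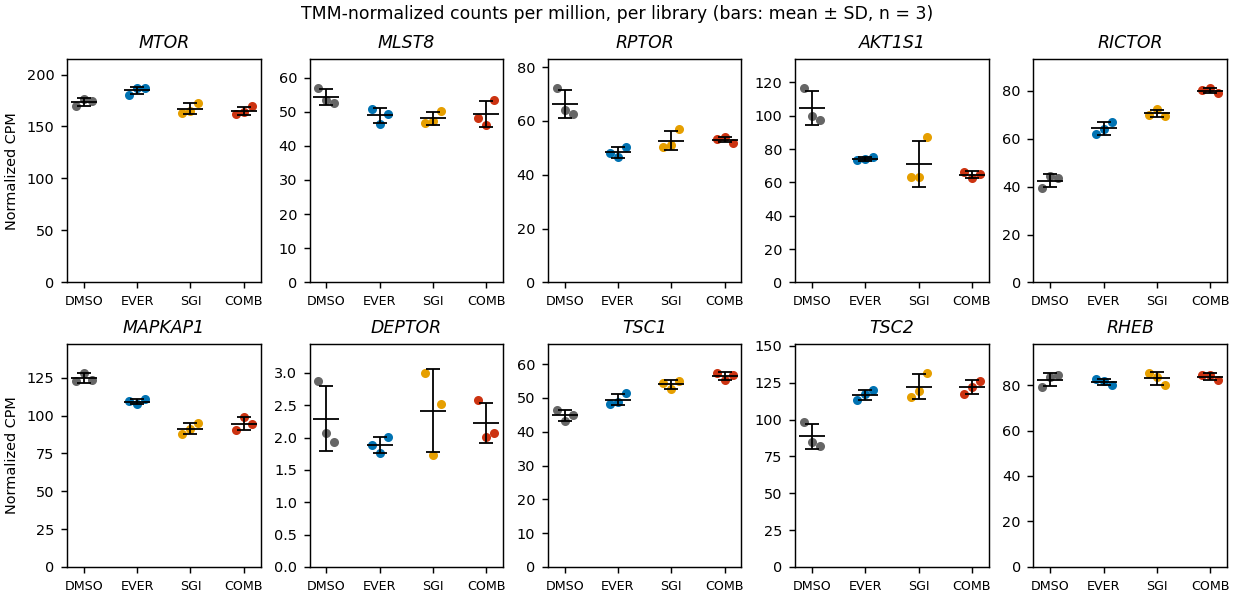
TMM-normalized CPM (counts scaled to library size) of the 10 genes, 1 panel per gene, where EVER stands for everolimus, SGI for SGI-1027 and COMB for both drugs, with a point per library and bars for mean ± SD of the 3 libraries of each group. RICTOR climbs from 42.4 in DMSO to 80.1 in the combination without overlap between any groups, and RHEB stays between 79.2 and 85.4 in all 12 libraries.

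RICTOR, the subunit that defines mTORC2, had 39.3, 44.5 and 43.5 normalized CPM in the DMSO libraries, 61.9, 64.1 and 66.9 with everolimus, 70.1, 72.4 and 69.6 with SGI-1027 and 80.2, 81.1 and 79.1 with the combination. The ranges of the 4 groups did not overlap, with DMSO lowest and the combination highest. Its log2 fold change against DMSO was 0.60 under everolimus, 0.74 under SGI-1027 and 0.92 under both drugs (SE 0.05 each), which are 1.52-, 1.67- and 1.89-fold increases. The adjusted p values were 1.63e-08, 6.48e-10 and 1.92e-11 by edgeR's quasi-likelihood test. The 95% confidence interval of the combination's log2 value, 0.81 to 1.02, reaches the log2 fold change of 1 that the study used as its cut-off. Of all tested genes, 15.4%, 14.3% and 11.96% moved at least as far in either direction under the respective treatment. RICTOR overlaps OSMR on the opposite strand in GENCODE v29, and whether counting used strand is not given in the sources used here.

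RPTOR, the subunit that defines mTORC1, moved the other way. Its levels were 72.1, 64.0 and 62.7 normalized CPM in DMSO, 48.2, 46.4 and 50.5 with everolimus, 50.3, 50.9 and 56.8 with SGI-1027 and 53.3, 53.9 and 51.9 with the combination. Every treated library lay below every DMSO library. Log2 fold changes were -0.45, -0.33 and -0.32 (SE 0.06 each), or 1.37-, 1.26- and 1.249-fold decreases, with edgeR adjusted p values of 3.86e-06, 9.82e-05 and 0.000115. The highest DMSO library, replicate 1, is one of those that deviate with GC content, and the RPTOR transcript has 59.8% GC against a median of 48.2% over tested genes. Without DMSO replicate 1 the RPTOR decreases kept an adjusted p under 0.05, and leaving out any 1 library gave log2 values of -0.49 to -0.39, -0.39 to -0.26 and -0.35 to -0.25.

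AKT1S1, which encodes the mTORC1 inhibitor PRAS40, had the lowest log2 fold changes of the 10 genes. It had 116, 99.9 and 97.6 normalized CPM in DMSO, 73.2, 73.7 and 75.1 with everolimus, 63.4, 63.1 and 87.0 with SGI-1027 and 66.4, 62.4 and 65.2 with the combination. All treated libraries lay below all DMSO libraries, but SGI-1027 replicate 3 stood well above the other two of its group. The log2 fold changes were -0.50, -0.56 and -0.69 (SE 0.09 each), or 1.41-, 1.47- and 1.62-fold decreases, with edgeR adjusted p values of 0.000149, 4.02e-05 and 2.72e-06. Without SGI-1027 replicate 3, which deviates with GC content as does DMSO replicate 1, the SGI-1027 value was -0.73, and the AKT1S1 transcript has 60.4% GC. The gene overlaps TBC1D17 on the opposite strand, so part of its count is uncertain.

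**Figure D2:**
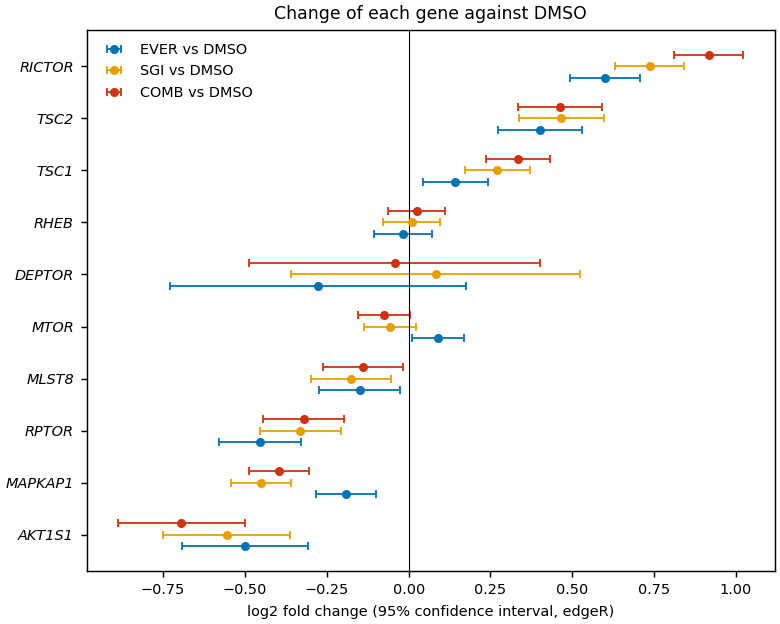
Log2 fold change against DMSO of each of the 10 genes under everolimus, SGI-1027 and the combination, with 95% confidence intervals from the edgeR fit. RICTOR, TSC2 and TSC1 lie right of 0, AKT1S1, MAPKAP1, RPTOR and MLST8 lie left of it, and the intervals of RHEB and DEPTOR include 0 throughout.

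MAPKAP1, the SIN1 subunit of mTORC2, fell while RICTOR rose. It had 122, 128 and 123 normalized CPM in DMSO, 109, 107 and 111 with everolimus, 87.6, 90.9 and 94.9 with SGI-1027 and 90.5, 99.2 and 94.3 with the combination. DMSO was highest and everolimus next, both clear of the overlapping SGI-1027 and combination groups. Against DMSO the log2 values were -0.19, -0.45 and -0.40 (SE 0.04 each), with edgeR adjusted p values of 0.00112, 6.47e-08 and 2.56e-07.

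TSC2, the GTPase-activating subunit of the brake on RHEB, had 98.6, 84.8 and 82.3 normalized CPM in DMSO, 113, 117 and 119.8 with everolimus, 116, 119.7 and 132 with SGI-1027 and 117, 122 and 126 with the combination. Every treated library exceeded every DMSO library, and the treated groups overlapped one another. Log2 fold changes came to 0.40, 0.47 and 0.46 (SE 0.06 each), or 1.32-, 1.38- and 1.38-fold increases, with edgeR adjusted p values of 2.21e-05, 2.89e-06 and 2.56e-06. DMSO replicate 1 and SGI-1027 replicate 3 were again the highest of their groups, and the TSC2 transcript has 60.5% GC. TSC2 overlaps NTHL1 and PKD1 on the opposite strand.

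TSC1, which stabilizes TSC2, changed less. Its levels were 46.5, 43.1 and 44.9 normalized CPM in DMSO, 48.2, 48.7 and 51.3 with everolimus, 54.4, 52.6 and 55.1 with SGI-1027 and 57.4, 55.3 and 56.7 with the combination. The 4 groups were ordered without overlap, from DMSO up to the combination. The log2 fold changes were 0.14, 0.27 and 0.33 (SE 0.05 each), with edgeR adjusted p values of 0.0155, 6.65e-05 and 5.27e-06. The everolimus call was lost without DMSO replicate 2 or without everolimus replicate 3, each with a log2 value of 0.11 and adjusted p values of 0.0809 and 0.0815.

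RHEB, the GTPase between the TSC complex and mTORC1, ranged from 79.2 to 85.4 normalized CPM over all 12 libraries, and its groups overlapped throughout. Its log2 fold changes were -0.02, 0.01 and 0.02 (SE 0.04 each), with edgeR adjusted p values of 0.749, 0.868 and 0.630. The widest 95% interval bounds were -0.11 and 0.11, so a change of the size seen for TSC2 lies outside these intervals. RHEB has 3 processed pseudogenes in GENCODE v29 (RHEBP1, RHEBP2 and RHEBP3), and how reads shared with them were counted is not given in the sources used here.

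MTOR, the kinase of both complexes, had 169, 177 and 175 normalized CPM in DMSO, 180.5, 187 and 187 with everolimus, 163, 165 and 173 with SGI-1027 and 162, 164 and 169.3 with the combination. The everolimus libraries lay above all others, and the combination libraries just below DMSO. The log2 fold changes against DMSO were 0.09, -0.06 and -0.07 (SE 0.04 each), and edgeR's adjusted p values of 0.0512, 0.204 and 0.0889 did not pass the threshold. The everolimus value is at the edge of the test, since 8 of 10 other ways of analysing the data gave an adjusted p under 0.05 with log2 values of 0.09 to 0.16.

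MLST8, a subunit of both complexes, had 56.9, 53.3 and 52.6 normalized CPM in DMSO, 50.9, 46.5 and 49.4 with everolimus, 46.7, 47.1 and 50.2 with SGI-1027 and 48.2, 46.0 and 53.5 with the combination. The single-drug libraries lay just below DMSO, and combination replicate 3 lay within the DMSO range. The log2 fold changes were -0.15, -0.18 and -0.14 (SE 0.06 each), with edgeR adjusted p values of 0.0369, 0.0144 and 0.0430. These are the least stable of the 21 calls against DMSO: with upper-quartile scaling the adjusted p values were 0.279, 0.0785 and 0.212, and without DMSO replicate 1 they were 0.119, 0.0584 and 0.160. DEPTOR, the inhibitory subunit shared by both complexes, was rare, with 64 to 119 counts per library. Its levels were 1.73 to 3.001 normalized CPM and overlapped in all comparisons, and its log2 fold changes were -0.28, 0.08 and -0.04 (SE 0.21 each). The 95% interval under everolimus ran from -0.73 to 0.17, so a change of the size seen for RPTOR (-0.45) was not excluded.

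Levels of different genes were compared with the authors' FPKM values, which are scaled by gene length. In DMSO the order of mean FPKM was AKT1S1 34.7 ± 3.73, MAPKAP1 33.8 ± 0.738, RHEB 30.7 ± 0.751, MTOR 18.9 ± 0.258, MLST8 17.0 ± 0.872, TSC2 12.96 ± 1.40, RPTOR 9.65 ± 0.836, TSC1 4.96 ± 0.226, RICTOR 4.35 ± 0.249 and DEPTOR 0.889 ± 0.205 (SD, n = 3). AKT1S1 and MAPKAP1 overlapped, and every other pair of neighbours was separate. In the combination RHEB led with 31.7 ± 0.546, followed by MAPKAP1 with 26.1 ± 1.24 and AKT1S1 with 21.7 ± 0.670. MTOR (18.2 ± 0.421) and TSC2 (18.1 ± 0.680) then overlapped, although TSC2 lay below both MTOR and MLST8 in DMSO. RICTOR (8.34 ± 0.119) had passed both TSC1 (6.34 ± 0.112) and RPTOR (7.83 ± 0.158), from which its 3 libraries were separate.

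**Figure D3:**
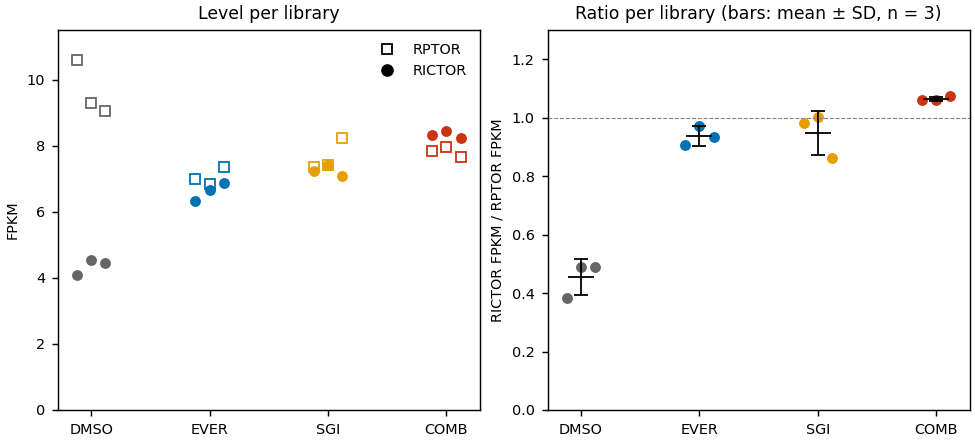
FPKM of RPTOR (open squares) and RICTOR (filled circles) per library on the left, and their ratio per library with mean ± SD on the right, where the dashed line marks equal FPKM. RPTOR lies above RICTOR in all DMSO libraries and below it in all combination libraries, and the mean ratio goes from 0.455 to 1.07.

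For the defining subunits of mTORC2 and mTORC1, the ratio of RICTOR to RPTOR FPKM was 0.384, 0.490 and 0.489 in DMSO, 0.906, 0.973 and 0.935 with everolimus, 0.982, 1.003 and 0.863 with SGI-1027 and 1.06, 1.06 and 1.07 with the combination. Every treated library was above every DMSO library, and the combination was above both single drugs, which overlapped each other. Against DMSO the ratio was 2.08-fold, 2.10-fold and 2.36-fold higher. Each had an exact 2-sided permutation p of 0.1, the smallest that 3 against 3 libraries allow, and 0.171 after adjustment over 24 such tests. The ratio of TSC2 to RHEB FPKM was 0.423 ± 0.0567 in DMSO and 0.563 ± 0.0254, 0.580 ± 0.0601 and 0.572 ± 0.0299 under the treatments (SD, n = 3), again without overlap and with the same exact permutation p of 0.1.

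Against everolimus alone, the combination had higher RICTOR and TSC1 and lower MAPKAP1 and MTOR. These 4 of 10 genes passed edgeR's test, beside 39.3% of all tested genes. The log2 differences were 0.32 for RICTOR (SE 0.05, adjusted p 4.49e-05), 0.19 for TSC1 (SE 0.05, adjusted p 0.00302), -0.21 for MAPKAP1 (SE 0.04, adjusted p 0.000996) and -0.16 for MTOR (SE 0.04, adjusted p 0.00192). Fitting only the compared groups gave 6 calls, adding AKT1S1 (-0.19, adjusted p 0.000106 by edgeR) and RPTOR (0.14, adjusted p 0.00971). The same 6 genes passed without SGI-1027 replicate 3, and 5 genes passed with no filter and with the GC-content offset, AKT1S1 being the addition in both. Against SGI-1027 alone, RICTOR alone passed, 1 of 10 genes beside 19.6% of all tested genes. Its log2 difference was 0.18 (SE 0.05, adjusted p 0.0130 by edgeR), and without combination replicate 2 it stood at 0.17 with an adjusted p of 0.0532. SGI-1027 against everolimus gave 2 of 10 genes, beside 22.5% of all tested genes. In these 3 comparisons and in the interaction of the drugs, 0 of the 10 reached the study's cut-off (3.9%, 1.64%, 1.79% and 5.76% of tested genes did) and 0 passed with a fold change of at least 1.5 (8.22%, 3.25%, 3.45% and 14.8% did). In SGI-1027 against everolimus, MAPKAP1 was lower by a log2 difference of -0.26 (SE 0.04, adjusted p 0.000269 by edgeR) and MTOR by -0.15 (SE 0.04, adjusted p 0.00921). AKT1S1 differed by -0.06 in that comparison, and without SGI-1027 replicate 3 by -0.23 with an adjusted p of 0.00865.

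An interaction term asked whether the combination's log2 fold change equals what the single drugs give when added. It passed the test for 5 of the 10 genes, beside 45.6% of all tested genes, and in all 5 the combination fell short of the sum. For RICTOR the sum was 1.34 and the combination 0.92, an interaction of -0.42 (SE 0.07, adjusted p 9.81e-05 by edgeR). For TSC2 the sum was 0.87 and the combination 0.46, an interaction of -0.40 (SE 0.09, adjusted p 0.000885). For RPTOR the sum was -0.78 and the combination -0.32, an interaction of 0.46 (SE 0.08, adjusted p 0.000218). MAPKAP1 had an interaction of 0.25 (SE 0.06, adjusted p 0.00344) and AKT1S1 one of 0.36 (SE 0.13, adjusted p 0.0306). The AKT1S1 call was lost with DESeq2, with upper-quartile scaling and with limma-trend without a filter (adjusted p 0.0742, 0.0738 and 0.103). It was also lost in 8 of 12 removals of 1 library, namely DMSO replicate 1, each everolimus library, SGI-1027 replicates 1 and 2 and combination replicates 1 and 3 (adjusted p 0.05002 to 0.0842 by edgeR). The contrast adds both single-drug values, each measured against the same DMSO libraries, so an error in the DMSO mean enters it directly.

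**Figure D4:**
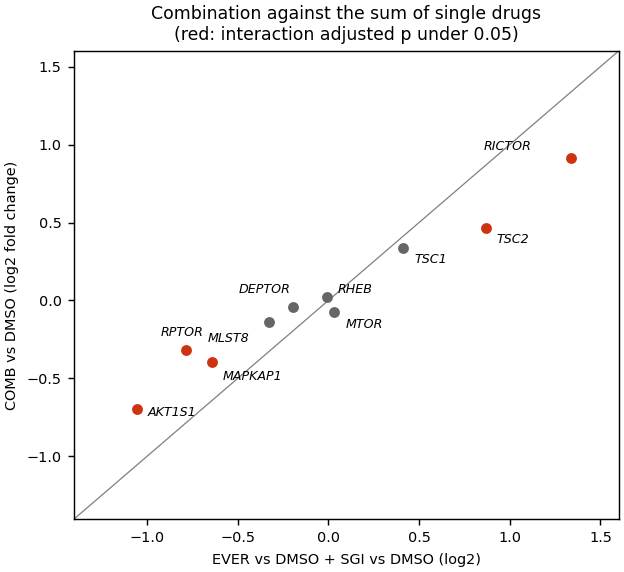
Log2 fold change of the combination against DMSO (vertical) and the added log2 fold changes of both single drugs (horizontal) for the 10 genes, with the line of equal values and red points for an interaction with adjusted p under 0.05. RICTOR and TSC2 lie below the line and RPTOR, AKT1S1 and MAPKAP1 above it, all nearer to 0 than the sum.

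Transcript GC content was 36.5% for RICTOR and 59.8% to 64.5% for RPTOR, AKT1S1, TSC2 and MLST8, of which TSC2 rose and the other three fell. With a GC-content offset per library, chosen after seeing the data, all 21 calls against DMSO held, RICTOR under the combination stood at 0.91 and MTOR under everolimus at 0.10 with an adjusted p of 0.0195.

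Genes around the complexes were counted by list, to be read against the shares of all tested genes. Those shares were 27.2% higher and 29.2% lower with everolimus, 32% and 30.6% with SGI-1027 and 32.8% and 33.4% with the combination. Of 7 further complex partners, 1 rose and 2 fell in the combination (14.3% and 28.6%), both below the share of all tested genes. With everolimus 1 rose and 3 fell, and with SGI-1027 1 rose and 2 fell. The median log2 fold change in the combination was -0.11 beside 0.01 over all tested genes. RHEBL1, a relative of RHEB, went from 1.42 ± 0.268 normalized CPM in DMSO to 2.46 ± 0.251, 2.69 ± 0.538 and 5.88 ± 0.864 with everolimus, SGI-1027 and the combination (SD, n = 3). Its log2 fold change of 2.05 in the combination (SE 0.19, edgeR adjusted p 2.09e-08) stood beside 0.92 for RICTOR. TELO2, a chaperone partner for mTOR assembly, fell by 0.23 on the log2 scale (SE 0.05, adjusted p 0.000489), and PRR5, which binds RICTOR, fell by 0.51 (SE 0.13, adjusted p 0.00229).

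Of 6 tested immunophilins, the family to which the everolimus receptor belongs, 3 rose and 3 fell in the combination, 50% each beside 32.8% and 33.4% of all tested genes (3 and 2 with everolimus, 2 and 2 with SGI-1027), with a median log2 fold change of 0.03 in the combination. FKBP4, a co-chaperone of steroid receptors, fell from 270.3 ± 2.32 normalized CPM in DMSO to 125 ± 2.20, 119 ± 2.18 and 119 ± 0.819 (SD, n = 3), a log2 change of -1.12, -1.19 and -1.18 (SE 0.03 each, edgeR adjusted p at most 8.32e-14). FKBP5, another co-chaperone, fell by 0.56, 0.74 and 0.78 on the log2 scale, and FKBP8 rose by 0.33, 0.35 and 0.28.

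Of 16 genes of the growth factor input, 7 rose and 5 fell in the combination, which is 43.8% and 31.3% beside 32.8% and 33.4% of all tested genes. With everolimus 4 rose and 5 fell, and with SGI-1027 6 rose and 5 fell. The list had a median log2 fold change of 0.12 in the combination beside 0.01 over all tested genes. IGF1R, the receptor for insulin-like growth factor, rose from 37.9 ± 2.09 normalized CPM to 55.0 ± 1.32, 56.1 ± 2.72 and 60.1 ± 2.93 (SD, n = 3). IRS2, an adaptor of these receptors, rose by 0.17, 0.66 and 0.59 on the log2 scale (edgeR adjusted p 0.0029, 5.29e-10 and 1.7e-09). GRB10, an adaptor that restrains them, had log2 fold changes of 0.07, 0.32 and 0.63 (edgeR adjusted p 0.215, 1.95e-05 and 3.01e-09). INSR, the insulin receptor, was low at 0.724 ± 0.210 normalized CPM in DMSO and rose by 1.01, 1.05 and 0.92 with an SE of 0.34. PIK3R3, a regulatory subunit of PI3K, had log2 fold changes of -0.29, -0.74 and -1.17, of which the first did not pass (edgeR adjusted p 0.273).

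Of 12 tested genes of the energy and stress input, 3 rose and 4 fell in the combination (2 and 4 with everolimus, 4 and 4 with SGI-1027). The shares in the combination, 25% and 33.3%, were near or below those of all tested genes (32.8% and 33.4%), and the median log2 fold change was -0.05. PRKAB2, a subunit of the energy sensor AMPK, rose by 0.40, 0.31 and 0.39 on the log2 scale. DDIT4 (REDD1), which acts through the TSC complex to restrain mTORC1, fell by 0.65, 0.12 and 0.36. The stress-induced SESN1 had values of -0.21, -0.56 and -0.72, the first with an edgeR adjusted p of 0.214.

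Of 28 tested genes of the amino acid input, 13 rose and 6 fell in the combination, which is 46.4% and 21.4% beside 32.8% and 33.4% of all tested genes. The same counts were found with SGI-1027, and 9 rose and 3 fell with everolimus. RRAGC, a Rag GTPase that recruits mTORC1 to lysosomes, went from 27.4 ± 2.90 normalized CPM to 37.0 ± 1.81, 46.8 ± 4.34 and 68.3 ± 2.46 (SD, n = 3), a log2 change of 0.44, 0.77 and 1.32. FLCN and FNIP1, partners that act on the Rag GTPases, rose by 0.15, 0.63 and 1.02 and by 0.49, 0.67 and 1.02. CASTOR2, related to the arginine sensor, fell by 0.30, 0.86 and 1.31 on the log2 scale. All 12 of these values passed edgeR's test, with adjusted p values of at most 0.0288. The median log2 fold change of the list was 0.10 in the combination beside 0.01 over all tested genes.

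**Figure D5:**
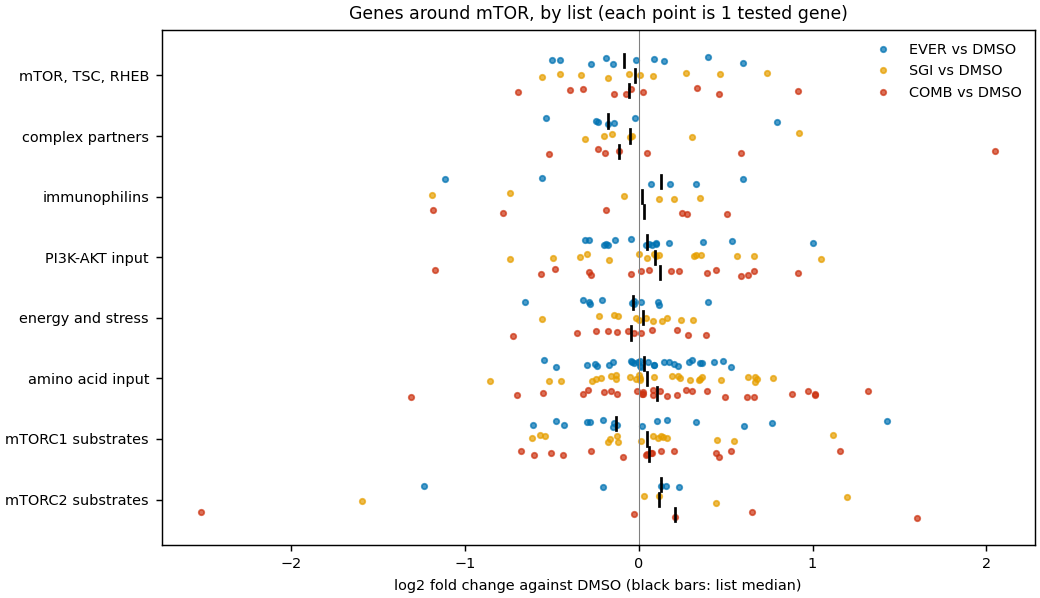
Log2 fold change against DMSO of each tested gene of 8 lists under everolimus, SGI-1027 and the combination, with 1 point per gene and a black bar at the list median. List medians lie between -0.18 and 0.21, while single genes such as RHEBL1 (2.05) and SGK2 (-2.52) in the combination lie far from them.

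Of 16 tested substrates and effectors of mTORC1, 5 rose and 6 fell in the combination (5 and 7 with everolimus, 6 and 5 with SGI-1027). The shares in the combination, 31.3% and 37.5%, were about those of all tested genes (32.8% and 33.4%), and the median log2 fold change was 0.06. PDCD4, a translation inhibitor, rose from 19.9 ± 1.45 normalized CPM to 53.7 ± 1.68, 43.3 ± 2.30 and 44.4 ± 0.579 (SD, n = 3), a log2 change of 1.43, 1.12 and 1.16. The scaffold of translation initiation EIF4G1 fell by 0.61, 0.61 and 0.68 on the log2 scale, and the autophagy gene ATG13 rose by 0.60, 0.45 and 0.45. These 9 values had edgeR adjusted p values of at most 5.08e-08. Of 5 tested genes of the mTORC2 substrate list, 3 rose and 1 fell in the combination (2 and 2 with everolimus, 3 and 1 with SGI-1027). These are 60% and 20%, beside 32.8% and 33.4% of all tested genes, and the median log2 fold change was 0.21. NDRG1, counted in this list although it is a target of SGK1, had 211 ± 13.1 normalized CPM in DMSO and 248 ± 8.48, 486 ± 57.3 and 641 ± 12.7 under the treatments (SD, n = 3). SGK2 fell from 14.2 ± 0.705 to 6.05 ± 0.298, 4.71 ± 0.295 and 2.49 ± 0.509, a log2 change of -2.52 in the combination. The related kinase SGK1 had log2 fold changes of 0.13, 0.44 and 0.65, the first with an edgeR adjusted p of 0.154. The list is small and its members moved in both directions.

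The genes whose log2 CPM was most like that of RICTOR over the 12 libraries were ST6GAL1 (Pearson r 0.996), METTL27 (0.996) and ADAM12 (0.990). ST6GAL1, a sialyltransferase, had 3.75 ± 0.394, 8.16 ± 0.768, 9.48 ± 0.346 and 12.3 ± 0.727 normalized CPM in DMSO, everolimus, SGI-1027 and the combination (SD, n = 3). The genes most like AKT1S1 were MEN1 (0.988), ARHGAP17 (0.985) and TCF3 (0.982), and the transcription factor TCF3 had 183 ± 17.2, 135 ± 2.92, 139 ± 17.9 and 129 ± 0.377. The 12 points share the group structure and the libraries that deviate with GC content, so these values are descriptions.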

How the data were processed

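Libraries from 786-O cells after 24 h of DMSO, everolimus, SGI-1027 or the 2 drugs together were used, 3 in each of 4 groups. The authors deposited raw whole-number counts for each gene symbol, and FPKM values of these genes that they had scaled by gene length and library size. FPKM is 0 only where the count is, and there always. The aligner, counting program and annotation are not given in the sources used here. The submitters' processing notes list GRCm38 and mm10, which are mouse builds, although the line is human. The paper describes TRIzol extraction and a stranded TruSeq kit, and the sample records an RNeasy extraction and a SMARTer kit.

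The deposited counts were tested with edgeR 4.0.16 under R 4.3.3 (filterByExpr by group, TMM factors, one quasi-likelihood fit of 12 libraries, prior count 0.125). Of 17085 genes 12841 were tested and 4244 were not. Benjamini-Hochberg adjustment was made over all tested genes. Ratios of FPKM were compared with exact 2-sided permutation tests. With 37046231 to 41516976 counts per library, precision rested mainly on the spread of 3 libraries. The procedure was run on simulated data in which few genes changed, and only in the combination group. Such a setting is unlike these data, where most tested genes passed against DMSO, so it does not show how the procedure performs here. Replicate numbers did not pair libraries across groups.

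Alternatives were DESeq2 1.42.0, upper-quartile scaling, no filter, at least 10 counts in every library, a replicate block, fits of the compared groups only, limma-trend (limma 3.58.1) on log2(FPKM + 1), with and without the filter, and on log2(FPKM + 0.1), other call rules, leaving out each library and, chosen after seeing the data, a GC-content offset from the longest GENCODE v29 transcript (12583 tested genes, 98.0%, had one). The genes and lists were chosen with earlier results of these data known. Named genes were the 10 themselves, of each further list the 3 genes of lowest p for the combination, each list gene past the study's cut-off in any group against DMSO, and the 3 genes most correlated with the genes of highest and lowest log2 fold change in the combination. Marker genes were named as a list.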

Additional observations from a re-analysis of the deposited data

Results flagged for a closer look

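In 5 genes the effect of one drug differed with the presence of the other, by edgeR's interaction test with an adjusted p under 0.05. The interactions on the log2 scale, combination minus the sum of the single drugs, were -0.42 for RICTOR, 0.46 for RPTOR, -0.40 for TSC2, 0.25 for MAPKAP1 and 0.36 for AKT1S1. Of all tested genes 45.6% passed the same test. The AKT1S1 call was lost with DESeq2, with upper-quartile scaling and with limma-trend without a filter (adjusted p 0.0742, 0.0738 and 0.103). Most removals of a single library lost it too.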

How the results depend on the processing

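Of the 21 calls against DMSO, the 18 outside MLST8 kept their direction and an adjusted p under 0.05 under every alternative fit, and under every removal of 1 library except TSC1 with everolimus (adjusted p 0.0809 without DMSO replicate 2 and 0.0815 without everolimus replicate 3, by edgeR). Under the study's cut-off 0 of the 10 genes were called in each of the 7 comparisons. With a fold change of at least 1.5 added, 1, 1 and 2 were called with everolimus, SGI-1027 and the combination against DMSO and 0 in the other 4 comparisons. SGI-1027 against everolimus gave 4 calls in place of 2 both with at least 10 counts in every library and with the GC-content offset, adding RICTOR and TSC1. Leaving out 1 library gave 5 to 8, 6 to 7 and 6 to 7 calls against DMSO, 4 to 6 for the combination against everolimus, 0 to 1 against SGI-1027, 2 to 4 for SGI-1027 against everolimus (4 without DMSO replicate 1) and 4 to 6 for the interaction. Same-numbered libraries of different groups did not deviate together (correlations -0.150 to 0.0425), and with the replicate number as a block the calls were 8, 7, 7, 4, 1, 2 and 5 in the same order.

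Reversed signs occurred only among values that did not pass the test, in the alternative as in the reported fit. Under upper-quartile scaling RHEB was 0.057 with everolimus and -0.041 in the interaction, DEPTOR was 0.012 in the combination, and MLST8 was -0.0088 for the combination against everolimus. With the GC-content offset the last was -0.076, and RHEB with everolimus was 0.0099. RHEB with SGI-1027 was -0.0059 by DESeq2 and -0.010 with no filter. For the combination against SGI-1027, TSC2 was 0.0048 by DESeq2, 0.0015 with no filter, 0.017 by limma-trend at a pseudocount of 1 with or without the filter and 0.018 at 0.1, and MTOR was 0.0019 by limma-trend at 1 with or without the filter and 0.0020 at 0.1. Under upper-quartile scaling the median log2 fold change over all tested genes was 0.075, 0.071 and 0.063 with everolimus, SGI-1027 and the combination. In the reported fit these medians were 0.001, 0.017 and 0.007. The upper-quartile values of MLST8 given above come from the same shifted fit. The cause of the reversed signs was not tested. When 1 library was left out, 24 further values reversed, and the log2 ranges of those results are given here. In everolimus against DMSO the ranges were RHEB -0.047 to 0.00081. For SGI-1027 against DMSO these were DEPTOR -0.10 to 0.27 and RHEB -0.017 to 0.034. In the combination against DMSO the ranges were DEPTOR -0.16 to 0.15. For the combination against everolimus these were MLST8 -0.054 to 0.063. In the combination against SGI-1027 the ranges were AKT1S1 -0.22 to 0.032, DEPTOR -0.31 to 0.061, MLST8 -0.028 to 0.086, MTOR -0.038 to 0.0075, RHEB -0.011 to 0.038, RPTOR -0.022 to 0.068 and TSC2 -0.043 to 0.052. For SGI-1027 against everolimus these were AKT1S1 -0.23 to 0.023 and MLST8 -0.062 to 0.0021. In the interaction the ranges were DEPTOR -0.034 to 0.34. DEPTOR, at 64 to 119 counts per library, had the largest SE of the 10 genes.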
